A study of Saccharomyces cerevisiae with 16 samples.

Results

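The change in CMCT-dependent reverse transcription stops between log-phase yeast and yeast labelled heat shocked was followed at 20482 genome positions, out of 5704895 listed. Pseudouridine is an isomer of uridine made after transcription by pseudouridine synthases, some guided by small RNAs and others recognizing sequence and structure on their own. The carbodiimide CMCT leaves an alkali-stable adduct on pseudouridine, and reverse transcriptase stops beside it, so that reads accumulate at the site in a +CMCT library and not in its mock-treated (-CMCT) partner. Pseudouridylation of yeast RNA responds to growth state: inducible sites in U2 snRNA, the small nuclear RNA that pairs with the intron branch point, appear in heat shock or nutrient deprivation. The position-wise comparison asks which stops depended on CMCT to a different extent in the 2 states.

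All libraries came from Saccharomyces cerevisiae strain BY4741, and its poly(A) RNA was purified in 2 rounds. One culture was sampled in log phase (OD260 of 0.8) and again after 30 min at 45 °C. The second culture was sampled in log phase and then in stationary phase (OD260 of 4). These OD260 values are as the samples are labelled, and the study's methods give culture density at another wavelength. Each RNA was split into +CMCT and -CMCT portions, and RNA transcribed in vitro (IVT, which carries no pseudouridine) was processed alongside, giving 16 libraries. The 4 natural-RNA libraries labelled heat shock and log phase of the heat-shocked culture define the comparison, with 1 library pair a side. The log-phase pair of the second culture serves as a second reference. The first log-phase pair is called the first log culture below, the other the second log culture.

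A position was kept when +CMCT and -CMCT reads together reached 20 in both experiments, outside the rDNA region of chromosome 12, which holds the 18S, 25S and 5S rRNA genes (sacCer3). At 52579 positions this held, and positions with the same 16 counts were taken once. The ratio is log2((+CMCT reads + 1)/(-CMCT reads + 1)), scaled by library totals outside the rDNA region, and the change is the ratio labelled heat shock minus the ratio labelled log phase. Intervals are 95% and cover counting error only; PCR copies are not independent molecules. Totals outside the rDNA region were 12876566 (+CMCT) and 8251674 (-CMCT) reads labelled heat shock, 4331859 and 3009351 in the first log culture and 12913428 and 5219225 in the second. At the read minimum, the 901 positions whose shallower experiment held exactly 20 reads had a median change of 0.04 (SD 0.98), and the 1052 positions at 19 reads, just outside, 0.08 (SD 0.98).

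The mRNA content of these libraries goes against their labels. Of 28 heat shock and chaperone genes, 26 had more reads per 1000000 outside the rDNA region (RPM) in both natural libraries labelled log phase of the first culture than in those labelled heat shock. The 28 genes summed to 70538 (+CMCT) and 72385 (-CMCT) RPM in the first log culture, against 15453 and 14449 labelled heat shock and 13422 and 16369 in the second log culture. HSP26, a small heat shock protein, stood at 10289 and 9981 RPM labelled log phase and at 169 and 135.003 labelled heat shock. SSA4, a heat-induced Hsp70, stood at 2538 and 2820 against 66.4 and 70.8. The exceptions were SSB1 and SSB2, ribosome-associated Hsp70 proteins. The 138 ribosomal protein genes, which yeast represses on heating, summed to 22049 and 22064 RPM labelled log phase and to 178168 and 167992 labelled heat shock. In bulk RNA such shifts cannot be divided between fewer cells and less RNA per cell. The labels were kept as deposited, every library is named by its label, and an exchange of the 2 labels would turn the sign of each change below. The second log culture, in which the chaperone sum is as low as in the libraries labelled heat shock, is given as a second reference beside most named results. The libraries labelled heat shock, whose labels are as much in doubt, enter every change.

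**Figure D1:**
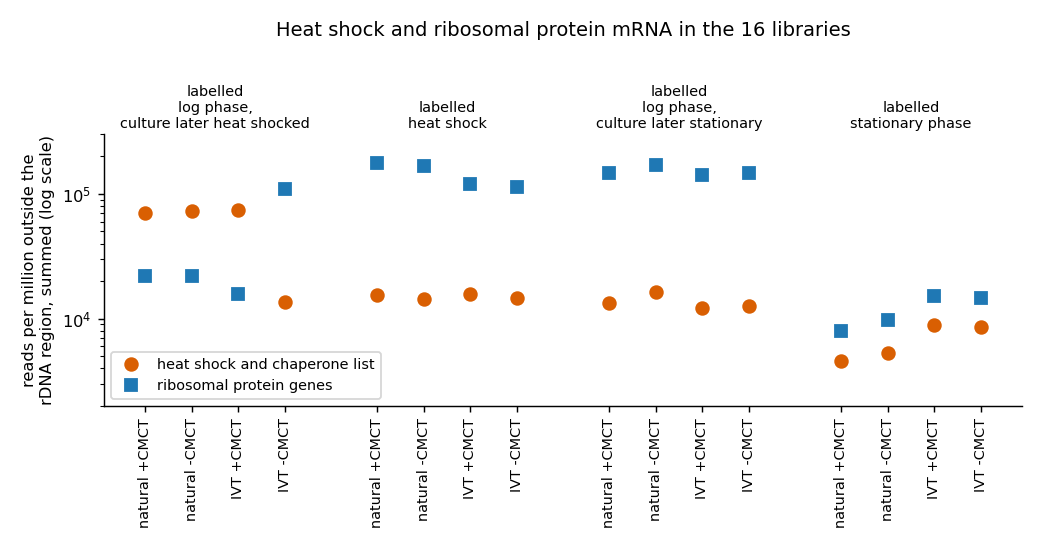
Reads per 1000000 outside the rDNA region (RPM, log scale), summed over 28 heat shock and chaperone genes (circles) and 138 ribosomal protein genes (squares), in each of the 16 libraries by label. In 3 of the 4 libraries labelled log phase of the later heat-shocked culture the chaperone sum lies between 70538 and 74462, and in the 4 libraries labelled heat shock it lies between 14449 and 15658.

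The IVT pair labelled first log culture does not match within itself: the chaperone sum was 74462 RPM in its +CMCT library and 13529 in its -CMCT library, and the ribosomal protein sum 15749 and 109043. An IVT change against that pair therefore holds differences in transcript content as well as in stops. IVT values are set against the second log culture instead, except where the unmatched first pair is named. The IVT sums of the second log culture were 12176 and 12611 for chaperones and 141421 and 146097 for ribosomal protein genes.

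RPL11A and TEF1 hold 2 strong CMCT-dependent stops listed in more than 1 experiment, and are shown because their sequences carry the motifs in which the study places the modified uridine. Both windows lie on chromosome 16 and are written as DNA, 5′ to 3′, with that motif in capitals, from the study's designed oligonucleotides.
RPL11A, stop listed at 731679: acattTCTGTTggtgaatct
TEF1, stop listed at 700830: tgtggaaGTTCGAaactcca
RPL11A encodes a protein of the large ribosomal subunit. Its stop had 1970 +CMCT and 27 -CMCT reads labelled heat shock, 54 and 0 in the first log culture and 636 and 8 in the second. The 3 ratios were 5.50, 5.26 and 4.84, and the change of 0.24 had an interval from -2.66 to 3.14. That value rests on a mock count of 0, and with 5 reads added in place of 1 it was 2.27. TEF1 encodes elongation factor EF-1 alpha, and the same sequence occurs in its copy TEF2. Its stop had 816 and 30 reads labelled heat shock, 124 and 6 in the first log culture and 265 and 10 in the second, with ratios of 4.08, 3.63 and 3.29. The change was 0.45 (interval -0.77 to 1.66), and 0.88 with 5 reads added. The ratios of both stops lay between 3.29 and 5.50 in all 3 experiments, and with 1 read added neither interval excluded 0. One base to either side in RPL11A, the counts labelled heat shock were 108 and 19 on the lower coordinate and 205 and 79 on the higher one.

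Across the 20482 members the ratio itself was centred near 0, with a median of 0.00 (SD 0.92) labelled heat shock and -0.11 (SD 1.04) in the first log culture. The change had a median of 0.12 and an SD of 0.76 on the log2 scale, of which counting error alone would give 0.60. From the 5th to the 95th percentile it ran from -1.20 to 1.27. Changes of at least 4-fold whose interval excluded 0 occurred at 141 positions in the higher direction and 149 in the lower, 1.42 percent of the members (0.688 and 0.727 percent). With each ratio centred on its own median the counts were 104 and 178. With 1 pair a side these counts have no replicate check.

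The pair of libraries compared resembled each other more than either resembled the second log culture. Over the 17268 members with 20 reads there too, 216 positions (1.25 percent) passed 4-fold between the libraries labelled heat shock and the first log culture, 110 higher (0.637 percent) and 106 lower (0.614 percent). Between the 2 log cultures 1163 did (6.74 percent), with 504 higher in the second (2.92 percent) and 659 lower (3.82 percent). Between heat shock and the second log culture 1428 did (8.27 percent), 975 higher (5.65 percent) and 453 lower (2.62 percent). The SDs of these differences were 0.74, 1.11 and 1.13. The ratios of the members correlated at r = 0.72 between heat shock and first log culture, 0.41 between heat shock and second log culture, and 0.49 between the log cultures, as a description over positions of shared libraries. By the labels, the 2 log-phase samples differed at more positions than the 2 states did within 1 culture. Were the labels of the compared pairs exchanged, the comparison between log phases would be the one with 1428 positions. In IVT RNA, heat shock against the second log culture gave 720 positions past 4-fold among 13504 (5.33 percent), 377 higher (2.79 percent) and 343 lower (2.54 percent). The natural change, which is against the first log culture and so has another reference, counted 118 at the same positions (0.874 percent). Of these 60 were higher (0.444 percent) and 58 lower (0.43 percent). Against the unmatched IVT pair of the first log culture 2746 positions passed (20.3 percent), 881 higher (6.52 percent) and 1865 lower (13.8 percent). The order of the natural pairs was the same among the 2845 members with 100 reads in all 3 experiments: 1 position passed 4-fold in the change, a lower one (0.0351 percent). Between the log cultures 85 passed (2.99 percent), 13 higher (0.457 percent) and 72 lower (2.53 percent), and against the second log culture 209 passed (7.35 percent), 203 higher (7.14 percent) and 6 lower (0.211 percent).

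**Figure D2:**
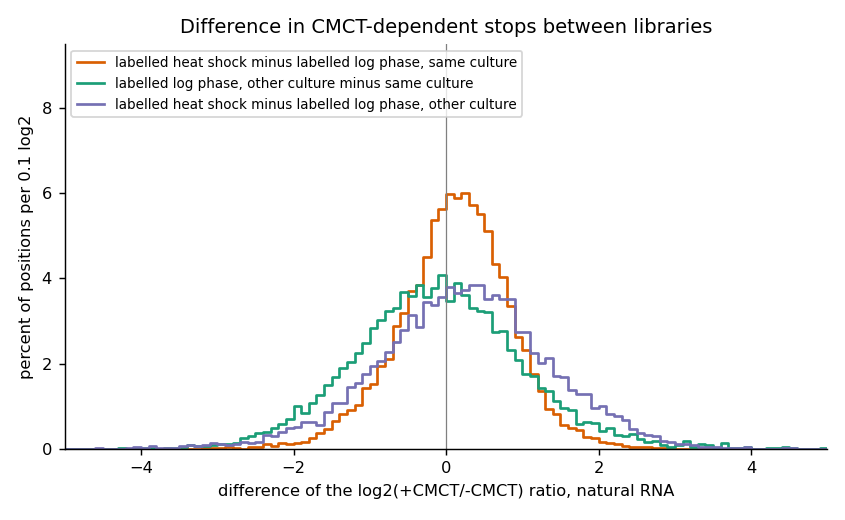
Distribution of the difference in log2(+CMCT/-CMCT) over 17268 positions for 3 pairs of natural-RNA experiments, as percent of positions per 0.1 log2. The difference labelled heat shock minus log phase of the same culture is the narrowest (SD 0.74), and both differences that involve the second log culture are wider (SD 1.11 and 1.13).

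A test across 3 experiments used both log cultures. Heat shock is a single library pair in it, so that the spread comes from the 2 log cultures alone, and these differ in chaperone mRNA as given above. In edgeR's quasi-likelihood fit of the 6 natural libraries, with each experiment as a block and 1 residual degree of freedom, the interaction of heat shock with CMCT was called at 0 of 17268 positions, in either direction. The smallest Benjamini-Hochberg adjusted p was 0.9997, and 337 positions had an unadjusted p under 0.05 (189 higher, 148 lower), 1.95 percent. DESeq2 also made 0 calls, with 95 higher and 10 lower under an unadjusted 0.05, and edgeR without TMM scaling had 386 and 55, so that the balance of directions depended on the scaling. No position is therefore described as having risen or fallen, and all values that follow describe these libraries; a missed threshold does not show that stops were alike.

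The lowest interaction p belonged to CCW12, a cell wall mannoprotein, at position 370000 of chromosome 12. There the reads were 107 with and 43 without CMCT labelled heat shock, 39 and 1 in the first log culture, and 88 and 1 in the second. The ratio was 0.65 labelled heat shock and 3.80 and 4.17 in the log cultures, so that both log cultures lay above. The change was -3.14 (interval -5.25 to -1.03), -3.52 against the second log culture, and -2.82 when scaled by the other CCW12 reads, with an unadjusted interaction p of 0.000125 and an adjusted p of 0.9997 (edgeR). One base higher, reads were 168 and 41 labelled heat shock, 49 and 7 in the first log culture and 177 and 32 in the second. The site is on the study's list of candidate pseudouridines for both log cultures, which were chosen on these libraries, so that its ratio there is no independent evidence.

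AHP1, a thiol peroxidase that detoxifies alkyl hydroperoxides, held positions at both ends of the order. At 368967 of chromosome 12 the reads were 12 and 22 (+CMCT and -CMCT) labelled heat shock, 38 and 4 in the first log culture and 33 and 4 in the second. The ratio labelled heat shock was below both log cultures, which differed by -0.98, with a change of -3.90 (interval -5.57 to -2.24) and -2.92 against the second log culture. At 369304 the reads were 37 and 1 labelled heat shock, 19 and 13 in the first log culture and 41 and 32 in the second, and the change was 3.62 (1.34 to 5.89), or 4.56 against the second log culture. The mock reads set the order here: 1 labelled heat shock and 13 and 32 in the log cultures. Of the 186 AHP1 members, 3 were higher and 4 lower past 4-fold, with a median change of 0.10. Over all members 1.42 percent passed 4-fold.

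The other positions with the smallest p in the higher direction lay in TKL1 (transketolase), HHT1 (histone H3), SSA1, FPR1 (a peptidyl-prolyl isomerase), TSA1 (a peroxiredoxin), CCW12, CPR6 (an Hsp90 cochaperone), PGK1 and RPL21B. In TKL1, at 694269 of chromosome 16, 97 and 18 reads labelled heat shock stood against 13 and 7 in the first log culture and 54 and 146 in the second. Here the log cultures differed from each other, and the interaction of 3.19 had an unadjusted p of 0.000346. RPL21B, at 407129 of the same chromosome, was the deepest of them: 831 and 198 reads labelled heat shock, 15 and 12 in the first log culture, 734 and 896 in the second. In the lower direction the next positions lay in YDR524C-B, FBA1 (aldolase), an equal pair in ENO1 and ENO2, TPI1, TEF1 and ADH1, and near HCH1. All 20 had an adjusted p of 0.9997.

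Ranked by the bound of the counting interval nearest to 0, the 12 highest positions ran from a change of 1.56 to 3.90 and the 12 lowest from -3.90 to -2.17, with at most 2 positions a gene. HSC82, a constitutive Hsp90 chaperone, headed the first list at 632602 of chromosome 13, with 36 and 2 reads labelled heat shock, 12 and 16 in the first log culture and 17 and 4 in the second. The change was 3.90 (1.90 to 5.89), and 2.44 against the second log culture, which lay between the other experiments. A short way downstream, at 632645, HSC82 was among the lowest: 5 and 26 reads labelled heat shock, 18 and 6 in the first log culture, 9 and 9 in the second, a change of -3.73 (-5.51 to -1.94). The same mRNA thus held large differences of both signs.

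The deepest of the 12 highest positions was in PGK1, phosphoglycerate kinase, at 138847 of chromosome 3. Its reads were 1404 and 324 labelled heat shock, 360 and 266 in the first log culture, and 1064 and 1582 in the second, so that the 3 ratios of 1.47, -0.09 and -1.88 were all apart. The change of 1.56 (1.27 to 1.85) was smaller than the difference of -1.79 between the log cultures. ENO2 at 452038 of chromosome 8 had 435 and 167, 80 and 110, and 502 and 517 reads in the same order, a change of 1.71 (1.23 to 2.20). There the log cultures lay close, with a difference of -0.37. SSA1, a cytosolic Hsp70, at 139631 of chromosome 1 had 187 and 83, 187 and 284, and 147 and 124 reads. Its log cultures differed by 0.06 and its change was 1.65 (1.19 to 2.10). The TEF1 positions 700804 and 701350 had changes of 2.26 and 2.72, with 13 and 31 and 4 and 20 reads in the first log culture. In IVT RNA, reads labelled heat shock and second log culture were 602 and 205 against 418 and 386 at PGK1. They were 412 and 91 against 389 and 332 at ENO2, and 128 and 48 against 71 and 45 at SSA1. At TEF1 700804 they were 354 and 84 against 121 and 68, and at 701350 109 and 37 against 111 and 40. Unmodified RNA thus also held a larger +CMCT share labelled heat shock at PGK1, ENO2, SSA1 and TEF1 700804. The part of this in the changes was not tested. The remaining positions lay in ENO1 (1001246 and 1002080 of chromosome 7), PRC1 (vacuolar carboxypeptidase Y), HSP60 (the mitochondrial chaperonin) and 287 bases outside YAR009C, in a sequence whose counts recur at 38 loci.

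At the other end, the deepest position was 326100 of chromosome 11, inside the span of BLI1. It had 234 and 676 reads labelled heat shock, 90 and 62 in the first log culture and 155 and 425 in the second. Heat shock and the second log culture were alike there and the first log culture stood apart, so that the change was -2.17 (-2.68 to -1.66) against one reference and 0.59 against the other. CDC19, pyruvate kinase, showed the same order 30 bases outside its span at 73318 of chromosome 1: 47 and 37 reads labelled heat shock, 37 and 2 in the first log culture, 36 and 26 in the second. Its change was -3.44 against the first log culture and 0.55 against the second. NCW1, a cell wall protein gene, at 511513 of chromosome 13 had 11 and 31 reads labelled heat shock, 21 and 8 in the first log culture and 16 and 5 in the second, and was lower than both (-2.82 and -2.25). The others lay in ENO1, PGK1, HSP150 (a cell wall protein), PMA1 (the plasma membrane proton pump), KAR2 (the Hsp70 of the endoplasmic reticulum), YAR010C and 159 bases outside MLO1. At HSP150 the second log culture had only 3 reads.

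**Figure D3:**
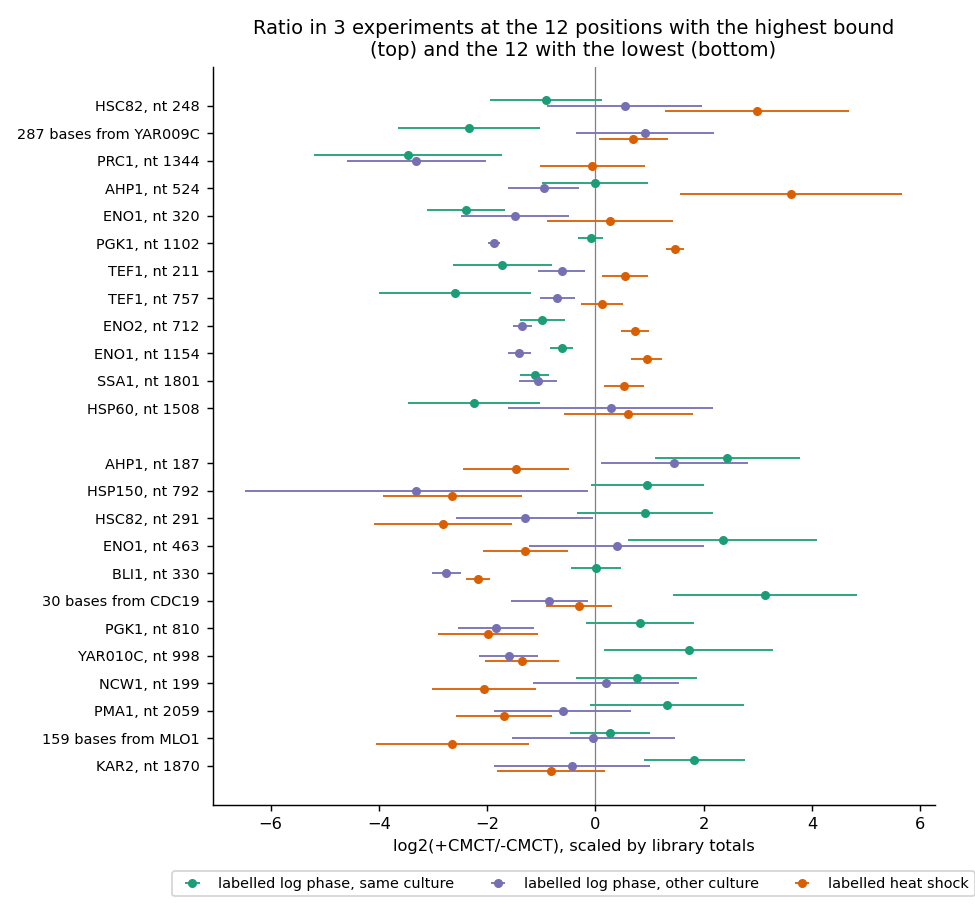
Ratio log2(+CMCT/-CMCT) with its 95% counting interval at the 12 positions with the highest bound (top) and the 12 with the lowest (bottom), in natural RNA labelled heat shock, log phase of the same culture and log phase of the other culture; positions are named by gene and nucleotide of the gene's span. At PGK1 nucleotide 1102 all 3 ratios are apart (1.47, -0.09 and -1.88), and at BLI1 nucleotide 330 the first log culture alone stands apart.

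The 290 positions past 4-fold were shallow. Their median read sum was 28 in the first log culture and 44 labelled heat shock, against 46 and 95 over all members, and at 192 of them the smallest of the 4 counts was 5 or less. Over all 20482 members the share past 4-fold was 1.42 percent, with 141 higher and 149 lower. Among the 10957 members with at least 20 and under 50 reads in the first log culture, 124 were higher and 127 lower. The SD of the change in that class was 0.86 (0.71 from counting). Among the 1245 with at least 200 and under 500 reads the SD was 0.50 (0.26 from counting), and 1 was higher and 0 lower. The 133 with 500 or more reads were wider again, with an SD of 0.68 (0.17 from counting) and a median of 0.54, and 0 passed in either direction. The median change was 0.06 in the shallowest of these depth classes and 0.36 at 200 reads. The change at adjacent members correlated weakly (r = 0.14 over 12769 pairs of neighbouring positions), and 1 pair of neighbours passed 4-fold in the same direction.

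The change moved with the ratio in the second log culture, which the change itself does not use. In 5 equal groups of the members ordered by that ratio, the median change was 0.34, 0.27, 0.15, -0.04 and -0.07 from the lowest ratios to the highest. That ratio correlated more closely with the first log culture (r = 0.49) than with heat shock (r = 0.41), which by itself favours falling medians. Known pseudouridines of the 18S and 25S rRNA, which lie outside the members, went the same way: the 42 sites with enough reads had a median change of -0.47 (SD 0.46), 35 of them below 0, against 0.05 (SD 0.61) at 4704 other rRNA nucleotides. Their median ratio was 3.17 labelled heat shock, 3.63 in the first log culture and 2.82 in the second, so that heat shock lay between the 2 log cultures and the change against the second was 0.53.

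Members lay mostly in a few abundant mRNAs. Inside 1 annotated gene span were 16604 members in 270 genes, nearly all protein coding (16564), while 135 lay in overlapping spans and 3743 outside any span (2421 of these within 200 bases of one). The files carry no strand, so that overlapping and antisense transcripts cannot be separated. The 10 genes with most members held 8775, or 42.8 percent: PGK1 1191, ENO2 1050, ENO1 900, TEF1 883, TDH3 851, ADH1 823, CDC19 798, HSC82 788, PDC1 787 and TDH2 704. Their median changes ran from 0.06 (ADH1) to 0.26 (TEF1). TDH3, the major glyceraldehyde-3-phosphate dehydrogenase, had 0 of 851 positions past 4-fold in either direction, against 1.42 percent over all members. Its members were deep, at medians of 271 and 126 reads labelled heat shock and log phase, against 95 and 46 over all members. The part of this depth in the count was not tested.

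Glycolytic and fermentative enzymes accounted for 9638 members in 15 of the 18 listed genes, with a median change of 0.12, 20 positions higher and 48 lower past 4-fold. That is 0.706 percent, against 1.42 percent over all members, at median depths of 119 and 68 reads labelled heat shock and log phase. ENO1, one of the enolases, had 2 higher and 9 lower of 900 members, and FBA1 0 and 4 of 636. Translation factors gave 1039 members in 7 of 17 genes, a median of 0.26, and 4 positions in each direction. Ribosomal protein genes gave 226 members in 63 genes, with a median change of 0.36, 2 higher and 0 lower. Against the second log culture the medians of these 3 lists were 0.29, 0.28 and 0.84. The median depth of the ribosomal protein members was 488.5 reads labelled heat shock and 24 labelled log phase, which left the first log culture to set the precision.

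Heat shock and chaperone genes had the largest share of positions past 4-fold among the lists. Of 1717 members in 18 of the 28 genes, 35 were higher and 17 lower, with a median change of 0.26. That is 3.03 percent, against 1.42 percent over all members. They were shallow labelled heat shock, at a median of 31 reads, against 44 in the first log culture, and the part of this depth in the share was not tested. HSC82 contributed 13 higher and 7 lower of 788, SSA1 6 and 4 of 415, and SSA2, another cytosolic Hsp70, 4 and 3 of 155. Of the strongly heat-induced genes, HSP26 had 20 members with a median change of 0.90 (1 higher), HSP104, the disaggregase, 9 with a median of 0.88 (2 higher), HSP12, a membrane-associated small heat shock protein, 6 with a median of 0.56 (0 higher), and HSP82, the inducible Hsp90, 112 with a median of 0.36 (2 higher). HSP30, a plasma membrane heat shock protein, had 6 members with a median of 0.27, and HSP78, a mitochondrial disaggregase, 1 member at 0.01. Members of HSP26 and HSP104 lay near the minimum of 20 reads labelled heat shock, at medians of 23.5 and 24. Over whole genes the changes were smaller: 0.28 for HSP26, 0.07 for HSP104, 0.33 for HSP12 and 0.07 for HSP82. HSP30 stood at -0.05 and HSP78 at 0.07 over the whole gene. HSP60 and HSP10, the mitochondrial chaperonin and its cochaperonin, each had 2 higher and 1 lower. HSP12 members had a median of 387.5 reads in the first log culture and 22.5 labelled heat shock, which is the order of the transcript levels given above. The medians of the whole list were -0.28 between the log cultures and 0.50 against the second log culture.

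Cell wall protein genes differed in sign from the other lists. Their 545 members in 11 of 18 genes had a median change of -0.11, with 4 positions higher and 6 lower past 4-fold (1.83 percent, against 1.42 percent over all members). CCW12, with 268 members, had a median of -0.30 and 0 higher and 3 lower, while HSP150 (136 members) had a median of 0.05 and BGL2, a glucanosyltransferase of the wall, (97 members) 0.30. NCW1, which is not on the list, had 60 members with a median of -0.30, 0 higher and 3 lower. Against the second log culture the median of the list was 0.45, so that its sign depended on the reference. GPP1, a glycerol phosphatase that is on no list and was picked out after its values were seen, had 5 higher and 0 lower of 88 members and a median of 0.53.

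Sequences whose counts recurred at 10 or more loci gave 1134 members, and up to 77 loci shared 1 member's counts. Past 4-fold were 13 higher and 21 lower (3.0 percent, against 1.42 percent over all members). Reads there cannot be assigned to a copy. The medians were 0.16 for the change and -0.16 against the second log culture.

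Over whole genes, the change was far smaller for mRNAs and large for structural RNAs. Among 2730 genes with 200 reads in both experiments, the change of the gene's summed ratio had a median of -0.05 and an SD of 0.24. Past 2-fold with an interval excluding 0, 0 genes were higher and 11 lower (0.403 percent): 4 of 2712 nuclear protein-coding genes and 7 of the 18 others. The 21S and 15S rRNAs of the mitochondrial ribosome were lowest. For 21S rRNA the reads were 969 and 3742 (+CMCT and -CMCT) labelled heat shock, 421 and 341 in the first log culture and 943 and 781 in the second, a change of -2.37 (-2.60 to -2.14). For 15S rRNA they were 372 and 1475, 175 and 153, and 267 and 327, a change of -2.29 (-2.65 to -1.94). In both, the mock library labelled heat shock held more reads than its +CMCT partner, and the first log culture fewer. Against the second log culture the changes were -1.55 and -1.03, and in IVT RNA against that culture -0.07 and -0.72. COX1, a mitochondrial mRNA gene, had a change of -0.27 whose interval included 0.

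Most nuclear non-coding RNAs also had a change below 0. Of 11 measured, 9 had an interval below 0 and 5 passed 2-fold, all lower, against 12.9 percent of all genes with an interval below 0. RUF5-1 and RUF5-2 share their counts. The median of the 11 was -0.53, and -0.51 against the second log culture. SNR30 turned from -0.33 to 0.44 between these references, and SNR9 stood at 0.18 and 0.52. The U5 snRNA gene SNR7-L had 98 and 199 reads labelled heat shock, 123 and 92 in the first log culture and 94 and 65 in the second, a change of -1.55 (-2.07 to -1.03). U2 (LSR1) had 498 and 917, 269 and 230, and 337 and 160 reads, a change of -1.22. U1 (SNR19) had a change of -1.24, the U3 snoRNA gene SNR17A -1.27, and SCR1, the RNA of the signal recognition particle, -1.25. For U1, U2 and U5 the ratio labelled heat shock was below both log cultures, with -0.51, -1.28 and -0.87 against the second. For SCR1 and SNR17A the second log culture was as low, with differences of -0.02 and -0.09. In IVT RNA against the second log culture the 5 values ran from -0.05 to 1.17. These RNAs are not polyadenylated as a rule, and their RPM in the mock libraries also differed between the states. Labelled heat shock minus first log culture, on the log2 scale, it was 2.00 for 21S rRNA, 1.81 for 15S rRNA, 1.00 for SCR1, 0.93 for SNR17A, 0.54 for LSR1, 0.14 for SNR19 and -0.35 for SNR7-L, and the part of these levels in the result was not tested.

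Single stops in snRNAs could not be followed. No position of an snRNA gene reached 20 reads in both experiments: in LSR1 the deepest held 55 reads labelled heat shock and 12 in the first log culture. The inducible uridines of U2 therefore gave no value. The mitochondrial genome held 0 members as well.

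Among mRNA groups over whole genes, the cell wall list had the lowest median against the first log culture: 17 measured, median -0.17, 0 with an interval above 0 and 9 below. Against the second log culture its median was 0.23, where all genes had -0.09 and the chaperone list 0.12, so that both its sign and its place depended on the reference. SED1 had 2305 and 1537 reads labelled heat shock, 4927 and 2218 in the first log culture and 6258 and 1663 in the second, a change of -0.68 (-0.80 to -0.57) and of -0.66 against the second log culture. CWP2 had a change of -0.84 (-1.14 to -0.54) and -0.63 against the second. CCW14 (-0.52 and -0.33) had the same order, and for CCW12 the sign turned between references (-0.33 and 0.54). In IVT RNA against the second log culture, CWP2 stood at -1.03, lower than its natural -0.63. SED1, CCW14 and CCW12 stood at 0.66, 0.67 and 0.35 there. Glycolytic genes had a median of 0.12, with 13 of 18 intervals above 0 and 1 below, and a median of 0.45 against the second log culture. TDH2, at 112308 and 69002 reads labelled heat shock, 59716 and 47870 in the first log culture and 82794 and 49184 in the second, had a change of 0.27 (0.25 to 0.29). TEF1 stood at 0.25 (0.23 to 0.28). The 132 ribosomal protein genes measured had a median of 0.07 (34 above, 2 below) and the 28 chaperone genes 0.07 (9 above, 3 below). Over all genes, 6.26 percent had an interval above 0 in this change against the first log culture. With the second log culture as reference the ribosomal protein and chaperone medians were 0.26 and 0.12. Ranked by the lower bound of the interval, the first genes were YMR317W (0.97, 0.52 to 1.42), YPL245W (0.76), HAP1 (0.41) and YDR034C-A (0.63). Against the second log culture their changes were 0.88, 0.17, 0.28 and 0.004, and in IVT RNA against that culture -1.06, -0.01, 0.13 and 0.04. In YDR034C-A a single position held 37.4 percent of the reads labelled heat shock. The deep genes had narrow counting intervals, and the differences between the log cultures over the same lists (-0.35 for glycolysis, -0.29 for the cell wall) were larger than the changes themselves.

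**Figure D4:**
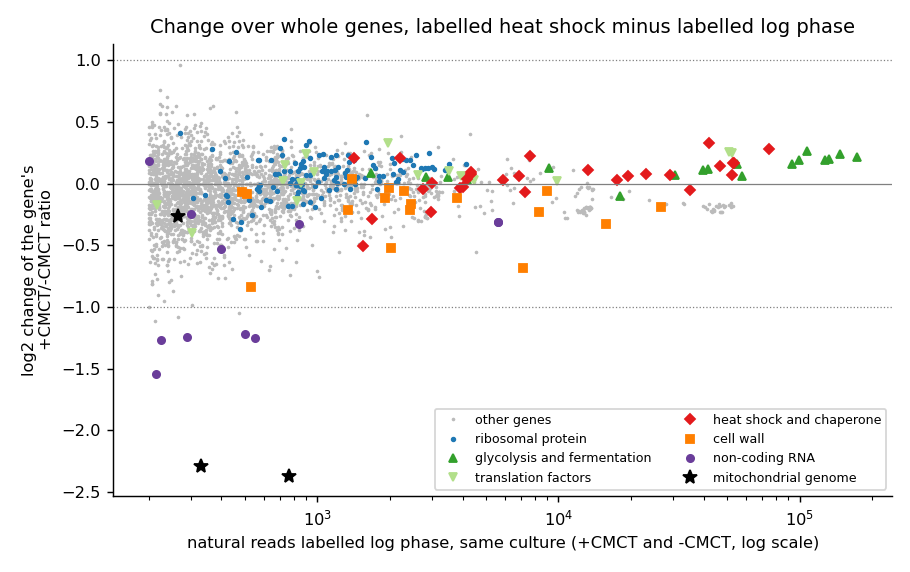
Log2 change of each gene's summed +CMCT/-CMCT ratio, labelled heat shock minus labelled log phase of the same culture, against its natural reads in the log-phase libraries (log scale), for 2730 genes; dotted lines mark 2-fold. Mitochondrial rRNAs lie below -2, 5 nuclear non-coding RNAs between -1.22 and -1.55, and cell wall genes mostly below 0.

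The study listed candidate pseudouridines separately for each experiment, and its lists were drawn from these libraries. Of 746 sites, 117 were members. The 23 listed for the first log culture alone had a median change of -2.25 and all lay below 0, and the 28 listed for heat shock alone had a median of 1.33 and all lay above 0, as the choice of sites on the compared libraries would give. The 51 listed for the second log culture alone were listed for neither compared experiment, which keeps out sites with a high ratio in either, so that values near 0 are favoured by the choice. Their median change was -0.05, with 19 above and 32 below 0, from -1.62 to 2.71, and 1 passed 4-fold. Their median difference between the log cultures, which the choice does use, was 2.57. Sites with equal values are counted separately in these lists, such as a TEF1 and a TEF2 site (-0.66) and a TDH2 and a TDH3 site (0.46). Among those listed for heat shock alone, an SSA1 and an SSA2 site (1.77) are such a pair. The sites of a list are therefore not all independent sequences.

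**Figure D5:**
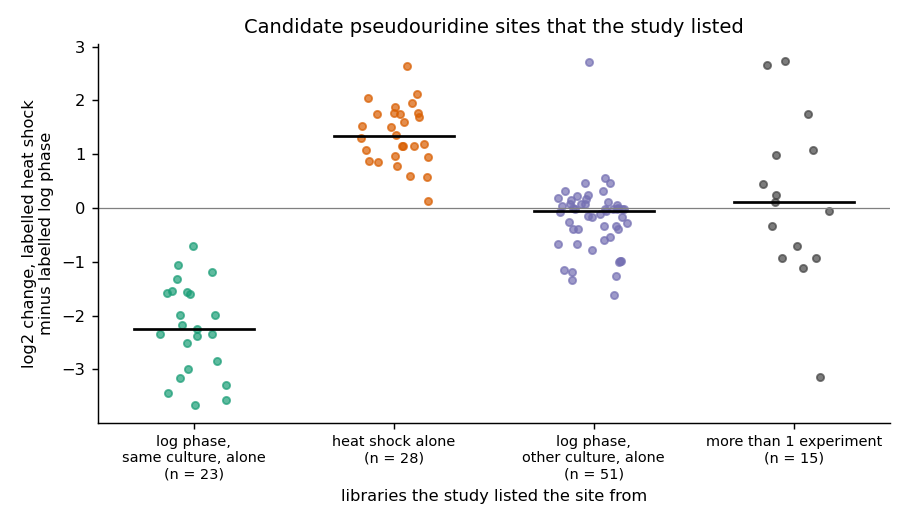
Change labelled heat shock minus labelled log phase (log2) at 117 candidate sites, each point 1 site, by the libraries the study listed it from. Sites with equal values are drawn separately, and horizontal bars are medians. Sites listed from a compared library lie on that library's side of 0 (medians -2.25 and 1.33), and the 51 sites listed from the second log culture and from neither compared experiment, a choice that favours values near 0, have a median of -0.05.

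Of 24 sites listed in more than 1 experiment, 15 were members, with a median change of 0.10, 8 above 0 and 7 below; these lists too used the compared libraries. CCW12 was lower past 4-fold and GPM1, phosphoglycerate mutase, was higher. GPM1, at 164375 of chromosome 11, had 73 and 3 reads labelled heat shock, 17 and 6 in the first log culture and 36 and 0 in the second, so that the first log culture alone was low. Its change was 2.73 (0.81 to 4.65), and -0.34 against the second log culture. For the other 13, RPL11A and TEF1 among them, the interval included 0. KAR2, at 383159 of chromosome 10, had 52 and 2 reads labelled heat shock, 155 and 4 in the first log culture, and 5 and 0 in the second, a change of -0.94 (-3.05 to 1.18). RPL4A, a large-subunit protein gene, had 202 and 16, 20 and 0, and 102 and 7 reads, a change of -0.93 (-3.91 to 2.05). HSC82, at 632425 of chromosome 13, had 75 and 3, 25 and 4, and 45 and 0 reads, a change of 1.75 (-0.25 to 3.76). FBA1 stood at -0.06 (-1.13 to 1.01), the narrowest interval of the 15. Positions 735635 of chromosome 7 and 980500 of chromosome 15 had nearly equal counts in every library and are copies of 1 repeat. At every site but FBA1 at least 1 of the compared mock libraries held fewer than 10 reads.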

How the data were processed

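The authors aligned reads to sacCer3 with Bowtie 0.12.5 (submitters' processing notes), allowing up to 2 mismatches, and deposited raw read counts per genome position for 16 libraries, with neither strand nor base. Log-phase columns are named by culture. Counts were used as deposited, with 1 read added before the log2 ratio, a minimum of 20 reads a position (200 a gene) and library totals outside the rDNA region. The methods place a read with several loci at 1 of them by chance, yet equal counts recur at many loci of the files; where reads are listed at every copy, these totals are inflated. Genes came from RefSeq R64. Members, lists and tests were chosen with earlier results of these data known. Named positions had the highest or lowest interval bound, at most 2 a gene, 12 each way; near copies (within 3 reads) counted once, a tolerance set after the data were seen. Named genes were the 8 highest and 8 lowest. Interactions used edgeR 4.0.16 (TMM, quasi-likelihood, adjusted p under 0.05) and DESeq2 1.42.0 in R 4.3.3, tested on simulated data. The check of base and motif was not run here. Alternatives covered the added reads, read minimum, scaling, repeats, reference culture and IVT.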

Additional observations from a re-analysis of the deposited data

Results flagged for a closer look

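The IVT +CMCT library labelled log phase of the later heat-shocked culture, which no comparison of natural RNA uses, held 15642 reads of HSP26 per 1000000 outside the rDNA region. The IVT -CMCT library with the same label held 124, and the IVT libraries labelled heat shock held 137 and 121. The HSP26 value was picked out as a signal in data outside the main measurement, above the level in its own mock control. That control is not matched in transcript content. Its chaperone sum was 13529, against 74462 in the +CMCT library. No group had the 4 samples that a test for single outlying samples needs.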

How the results depend on the processing

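The median change was above 0 under each alternative of the position analysis, but centring brings it near 0 by construction and so cannot check its sign. Its size followed the scaling, with a median of 0.06 when equal counts were taken once in the totals. The interaction fits of edgeR and DESeq2 gave 0 calls except at the lowest read filter (1 call, lower). Without the experiment as a replicate block the edgeR interaction still gave 0 calls (6 higher and 22 lower at an unadjusted p under 0.05). The edgeR fit of IVT RNA, with the block, also gave 0 calls (6 and 15), and it includes the unmatched first pair. The counts past 4-fold (141 higher, 149 lower) depended on depth: 24 and 22 with 5 reads added (SD 0.62), 730 and 617 at a minimum of 10 reads (SD 0.97), and 2 and 9 at 50 reads (SD 0.59). Centring moved the median to 0.0090. With the second log culture as reference they were 4623 and 2116 (median 0.26, SD 1.24), and with both log cultures summed 2947 and 2028 (SD 1.09), over more positions. With the IVT change subtracted they were 3758 and 981 (median 0.76, SD 1.76); the first IVT pair differs in transcript content. Taking equal natural counts once gave 126 and 138, and leaving out the chaperone genes 106 and 132, both chosen after seeing the data. IVT changes at the named positions were taken against the unmatched first IVT pair, so that they hold differences in transcript content too. Among positions with 20 reads there, 3 of 9 highest lay above 0, 7 of 8 lowest below 0 and 6 of 7 listed sites above 0. In natural RNA, 4 of 10 listed sites lay above 0 after scaling by the rest of the gene.

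Against the second log culture, a comparison that shares the heat shock libraries, signs turned at 5 of the 24 ranked positions: near YAR009C (-0.22), HSP150 (0.66), BLI1 (0.59), CDC19 at 73318 (0.55) and YAR010C (0.25). They turned at 9 listed sites: 24202 of chromosome 13 (0.40), 735635 of chromosome 7 (-0.54), 482839 of chromosome 7 (2.13), KAR2 (2.22), RPL4A (0.56), HSC82 (-0.61), ADH1 (-0.58), FBA1 (0.79) and GPM1 (-0.34). With 5 reads added they turned at 24202 (0.51), 482839 (0.85), RPL4A (0.86) and FBA1 (0.032), and after scaling by the gene at CDC19, 73018 (-0.016). The cause was not tested. Genes past 2-fold (0 higher, 11 lower) became 0 lower at 1000 reads, which leaves 548 genes, 21 higher and 103 lower against the second log culture, 904 and 193 in IVT RNA against its unmatched first pair, and 21 and 9 in IVT RNA against the second log culture. Leaving out a log-phase pair leaves the interaction with no residual degrees of freedom, so no such fit was made. The comparison by base and motif was not run, for want of a genome sequence here. Over all members the first log culture was the shallower side (median 46 reads against 95), and in the chaperone list the libraries labelled heat shock were (31 against 44).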

Other observations

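With the filter lowered to 10 reads over the 6 natural libraries together, 1 of 418531 positions was called (edgeR interaction, adjusted p = 0.0179): position 1453220 of chromosome 4, 90 bases outside SAM2, a gene for S-adenosylmethionine synthetase. It had 5 reads with CMCT and 981 without it labelled heat shock, 0 and 3 in the first log culture and 6 and 2 in the second, so the call rested on a stop in a single mock-treated library. It had too few reads in the first log culture to be a member.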
